A study of Homo sapiens with 6 samples.

Results

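The genes described here are the 240 protein-coding genes of human chromosome 19 whose symbol is ZNF followed by a number, out of 58735 genes in the deposited table. They were chosen by symbol, biotype and chromosome alone, and no measured value enters that rule. They were followed in Ishikawa cells, an endometrial adenocarcinoma line grown as an epithelial monolayer. The knockdown cells (siTCF19) received small interfering RNA against TCF19, which encodes a nuclear protein whose PHD finger reads histone tails, and the control cells (siNC) received a negative control siRNA. Both groups were transfected with a Lipofectamine reagent (lipo2000 in the labels), kept in DMEM with 10% fetal bovine serum and harvested after 48 h, with 3 libraries in each group. The sources used here do not say how many different siRNAs were used against TCF19. The labels call the libraries experimental triplicates and do not name separate cultures, so the p-values below measure the spread between these libraries, which may be technical.

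Most of these genes encode C2H2 zinc finger proteins, in which each finger folds around a zinc ion and a row of fingers reads a stretch of DNA. The large majority also carry a Krüppel-associated box (KRAB), which recruits the corepressor TRIM28, and TRIM28 in turn brings the histone methyltransferase SETDB1, the heterochromatin proteins CBX1, CBX3 and CBX5, and the deacetylase complex NuRD. KRAB zinc finger proteins are best known for silencing transposable elements. Their genes arose by repeated tandem duplication, which is why they stand in clusters of close relatives on chromosome 19.

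Library totals ran from 14680022 to 15529688 counts in siTCF19 and from 14872698 to 16244705 counts in siNC. A count of 3, taken as the floor, was worth 0.190 to 0.206 counts per 1000000 (CPM, with library sizes after TMM scaling). TCF19 itself, the targeted gene, measured 42.7, 35.3 and 39.1 CPM in siTCF19 against 177, 185 and 177 CPM in siNC, a log2 fold change of -2.20 (edgeR quasi-likelihood test, adjusted p = 6.15e-29). The epithelial markers KRT8, KRT18, KRT19, EPCAM, CDH1 and PAX8 summed to between 2692 and 2811 CPM in siTCF19 and between 2861 and 2989 CPM in siNC. Within that sum KRT8 (-0.40) and KRT18 (-0.43) fell, CDH1 (0.61) and KRT19 (0.44) rose, and EPCAM and PAX8 were not called (log2 fold changes, edgeR). The 10 markers of immune, endothelial and fibroblast cells summed to 39.5 to 47.0 CPM in siTCF19 and 23.8 to 26.4 CPM in siNC, nearly all of it COL1A1 and VWF, while DCN was at 0 in all 6 libraries. The endothelial markers did not move together, since VWF rose (log2 fold change 1.60) and CDH5 fell (-1.89), and PECAM1 was at most 0.190 CPM in siTCF19 and 0.412 to 0.955 CPM in siNC. Mitochondrially encoded genes took 3.92% to 4.08% of the counts in siTCF19 and 3.49% to 3.65% in siNC. The part of these last differences in the results below was not tested.

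The chromosome 19 zinc finger genes were mostly expressed at low levels, and a minority of them differed in siTCF19, by small amounts and in both directions. Of the 240 genes, 234 had enough counts to be tested, and at an adjusted p under 0.05 (edgeR, adjusted over all 17299 genes tested) 26 rose and 34 fell in siTCF19, with 174 not called. The 60 called genes are 25.6% of those tested, where 41.5% of all tested genes were called. Under scaling by library size alone the split turned to 37 higher and 25 lower, or 26.5%, beside 42.5% of all genes. Which direction holds the majority thus depends on the scaling. By direction, 11.1% of the zinc finger genes rose, against 20.7% of all genes, and 14.5% fell, against 20.8% of all genes. The median log2 fold change was -0.03, beside 0.00 over all genes. Under scaling by library size alone it became 0.03, beside 0.06 over all genes. In a bulk sample, fewer cells expressing a gene and less RNA per cell cannot be told apart.

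The changes were small as well as few. Log2 fold changes ran from -0.81 for ZNF728 to 0.88 for ZNF578, so 0 of the 234 tested genes passed 2-fold, where 4.85% of all genes were called at that size. Among the 60 calls, 54 lay below 1.5-fold in either direction. The middle 50% of the zinc finger genes spanned 0.30 on the log2 scale, against 0.47 for all genes. The groups did not overlap for 87 zinc finger genes, or 37.2%, where 49.2% of all genes had groups that did not overlap.

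The depth of the genes bears on such shares, and the zinc finger genes had a median of 15.7 CPM against 19.8 CPM for all tested genes, with a median standard error of 0.11 and 0.10 on the log2 scale. Between 5 and 50 CPM, a band chosen after the data were seen, 192 zinc finger genes were tested and 22 rose and 30 fell, or 27.1%, where 45.7% of the 6517 genes in that band were called. In the same band 36.8% of the 144 numbered ZNF genes on other chromosomes were called and 51.9% of the 283 other protein-coding genes of chromosome 19. Over all levels, 31 of 215 tested ZNF genes of other chromosomes rose and 45 fell, and 138 of 746 other protein-coding genes of chromosome 19 rose and 233 fell. These shares are descriptions, and the differences between the sets were not tested.

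**Figure D1:**
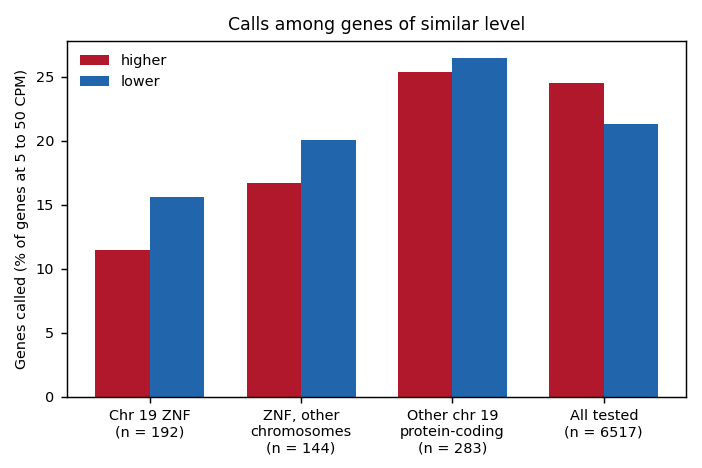
Percent of genes between 5 and 50 CPM called higher and lower in siTCF19, with bars from 0, for the chromosome 19 zinc finger genes and 3 sets beside them; n is the number of genes tested in that band. The chromosome 19 zinc finger genes have 22 genes higher and 30 lower (15.6%) of 192, and all genes of the band stand at 24.5% higher and 21.3% lower.

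As a whole the family took a share of the transcriptome that overlapped between the groups. All 240 genes together took 0.494%, 0.499% and 0.480% of the counts in siTCF19 and 0.490%, 0.469% and 0.492% in siNC. The 3 siTCF19 values lie inside or just above the siNC range. After TMM scaling the sums were 4857, 4893 and 4720 CPM in siTCF19 and 5006, 4852 and 4988 CPM in siNC. On that scale the siTCF19 values lie inside or below the siNC range, so the side depends on the scaling.

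**Figure D2:**
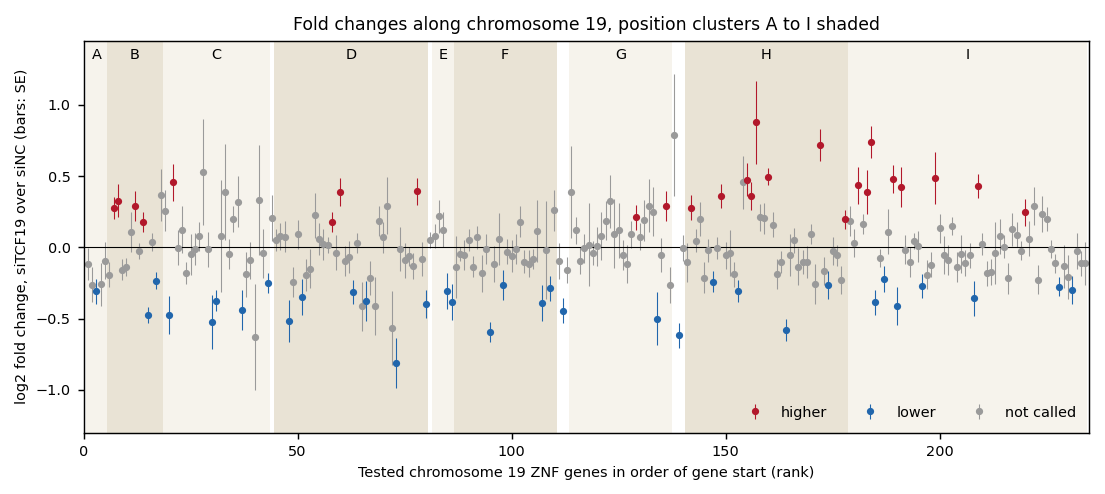
Log2 fold change (siTCF19 over siNC, vertical axis) of the 234 tested zinc finger genes in rank order of their starts along chromosome 19 (horizontal axis), with bars of 1 standard error. Letters and shading mark the 9 position clusters, explained with the clusters, and colour marks genes called higher, lower or not called; calls of both directions lie side by side in clusters such as B, H and I.

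Among the genes that rose, the largest well-measured changes were in ZNF580, ZNF677 and ZNF83. ZNF580 measured 21.1, 15.7 and 19 CPM in siTCF19, against 10.7, 11.8 and 11 CPM in siNC. Every siTCF19 library was above every siNC library, and the log2 fold change was 0.74 ± 0.11 (SE, adjusted p = 7.6e-07, edgeR). ZNF677 measured 19.7, 23.4 and 21 CPM in siTCF19 against 16.2, 11.4 and 11.4 CPM in siNC, and rose by 0.72 ± 0.11 (SE, adjusted p = 1.55e-06, edgeR) with no overlap, siNC replicate 1 lying nearest to the siTCF19 range. ZNF83, one of the more abundant members, had 87.6, 85.4 and 83.7 CPM in siTCF19 and 64.5, 58.6 and 58.9 CPM in siNC. Its log2 fold change was 0.50 ± 0.06 (SE, adjusted p = 3.8e-09, edgeR), again with no overlap of the groups.

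ZNF578 had the largest fold of the family but few counts behind it. It measured 2.97, 1.94 and 2.77 CPM in siTCF19 against 0.962, 1.53 and 1.67 CPM in siNC, a log2 fold change of 0.88 ± 0.29 (SE, adjusted p = 0.0132, edgeR). The call was lost without siNC replicate 1 (adjusted p = 0.0788, edgeR) and without siTCF19 replicate 1 (adjusted p = 0.0692, edgeR), and in limma on the deposited FPKM values (adjusted p = 0.0601). The gene ZNF541, which was not called (log2 fold change 0.79), was called past 2-fold without siTCF19 replicate 1, and ZNF578 was without siTCF19 replicate 2 or siNC replicate 3.

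The other genes among the 12 largest rises lay between 0.39 and 0.49 on the log2 scale. ZNF583 measured 20.8, 20.3 and 20.2 CPM in siTCF19 and 14.8, 14.1 and 15.1 CPM in siNC (adjusted p = 9.51e-05, edgeR). ZNF530 had 28.3, 27.8 and 27.0 CPM in siTCF19 and 20.3, 20.2 and 21.2 CPM in siNC (adjusted p = 6.71e-05, edgeR). The groups of both genes stand well apart. ZNF880, ZNF823 and ZNF681 rose by 0.47, 0.46 and 0.39 and were called in every fit run. ZNF547 (0.49), ZNF524 (0.43) and ZNF471 (0.42) were less secure. ZNF524 lost its call without siTCF19 replicate 3 (adjusted p = 0.0807, edgeR), and ZNF547 lost it when siTCF19 replicate 3 or either of siNC replicates 1 and 2 was left out. The groups of ZNF471 overlapped, at 12.5, 8.42 and 11.7 CPM in siTCF19 and 8.73, 8.59 and 6.99 CPM in siNC, and its call was lost when siNC replicate 3 or either of siTCF19 replicates 1 and 3 was left out.

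Among the genes that fell, ZNF121 had the smallest p of the family. It measured 112, 109 and 112 CPM in siTCF19 against 167, 144 and 153 CPM in siNC, a log2 fold change of -0.48 ± 0.05 (SE, adjusted p = 9.3e-10, edgeR). ZNF850 measured 36.6, 36.6 and 36.2 CPM in siTCF19 against 58.6, 52.1 and 54.7 CPM in siNC, a log2 fold change of -0.59 ± 0.07 (SE, adjusted p = 1.73e-09, edgeR). In both genes the siTCF19 libraries lay close together and below all siNC libraries. ZNF114 had 19.6, 19.1 and 20.1 CPM in siTCF19 and 32.1, 28.1 and 30.1 CPM in siNC, and ZNF468 had 30.0, 27.1 and 28.4 CPM in siTCF19 and 46.2, 42.2 and 39.5 CPM in siNC. They fell by 0.62 (adjusted p = 1.38e-07, edgeR) and 0.58 (adjusted p = 4.56e-08, edgeR) on the log2 scale, without overlap of the groups.

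ZNF728, a gene of low level, had the largest fall. It measured 4.30, 4.81 and 3.42 CPM in siTCF19 and 7.77, 8.34 and 5.90 CPM in siNC, a log2 fold change of -0.81 ± 0.17 (SE, adjusted p = 0.000161, edgeR), with the lowest siNC library still above the highest siTCF19 library. The remaining genes among the 12 largest falls changed by -0.41 to -0.53. ZNF574 (-0.45), ZNF253 (-0.52), ZNF627 (-0.48) and ZNF667 (-0.41) were called in every fit run. ZNF442 (-0.44) lost its call without siNC replicate 3 or siTCF19 replicate 1. ZNF878 (-0.53) lost it when any of siNC replicates 1 and 3 and siTCF19 replicates 1 and 2 was left out, and ZNF285 (-0.50) when any of siNC replicates 1 and 2 and siTCF19 replicates 2 and 3 was left out.

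**Figure D3:**
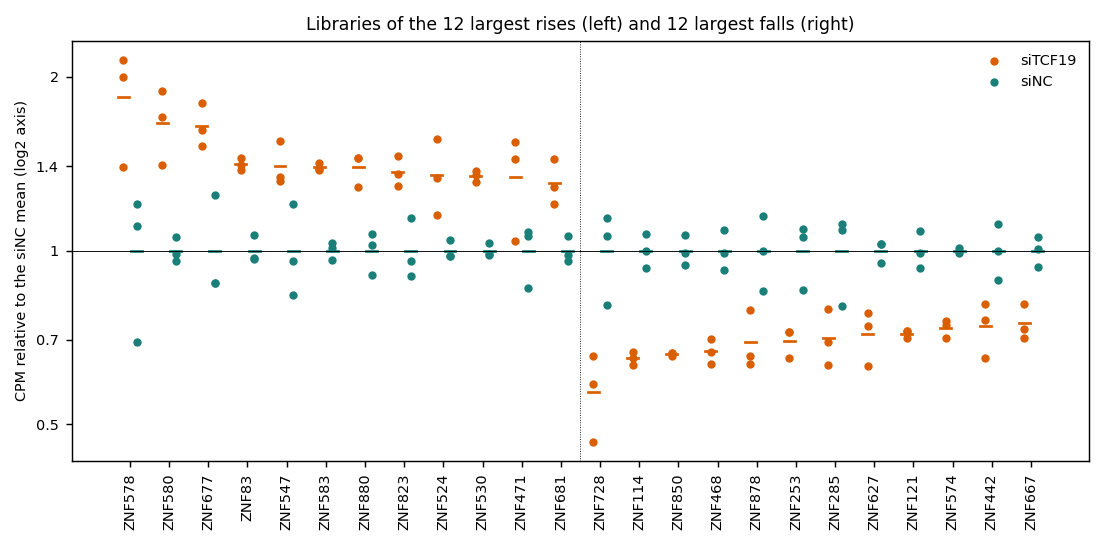
CPM of the 12 largest called rises (left) and 12 largest called falls (right), each library divided by the gene's siNC mean, on a log2 axis, siTCF19 libraries left of siNC libraries for each gene. Points are single libraries and short bars are group means; the groups overlap for ZNF471, and the siTCF19 points of ZNF850 nearly coincide.

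By position the genes fell into 9 clusters of at least 5 members, split where consecutive gene starts lay over 1 Mb apart, with 9 genes left scattered. Coordinates are those of the deposited table (hg38). Neighbouring genes had the same sign somewhat more often than not. Of 217 adjacent tested pairs within a cluster, 127 had fold changes of the same sign, or 58.5%. Adjacent protein-coding genes over all chromosomes had the same sign in 53.2% of 12776 pairs, and the difference was not tested. Of the 12 adjacent pairs in which both genes were called, 6 moved in the same direction and 6 in opposite directions.

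Clusters A to D lie on the short arm. Cluster A (chr19:2819874-2944971, 5 genes from ZNF554 to ZNF77) had all 5 fold changes below 0 and a median of -0.26, the lowest of any cluster under the 1 Mb split. Its summed level was 59.0, 60.5 and 57.6 CPM in siTCF19 against 68.2, 68.9 and 69.2 CPM in siNC, with no overlap, although a single member was called. That member was ZNF556, at 19.7, 19.6 and 20.4 CPM in siTCF19 and 24.7, 24.2 and 25 CPM in siNC (log2 fold change -0.31, adjusted p = 0.00415, edgeR). Without siTCF19 replicate 2 the count of called genes in cluster A was 2.

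Cluster B (chr19:7069444-9793180, 15 genes) held ZNF121 and had 6 of 13 tested genes called, or 46.2%, a share near the 41.5% of all tested genes. Its summed level was 548, 550 and 550 CPM in siTCF19 and 619, 579 and 595 CPM in siNC, with every siTCF19 library below every siNC library. Most of that fall in the sum lay in ZNF121, which averaged 111.0 CPM in siTCF19 and 154.4 CPM in siNC. The median log2 fold change of cluster B was 0.04. ZNF358, ZNF414, ZNF559 and ZNF426 rose and ZNF121 and ZNF562 fell, so the cluster moved both ways. The number that rose was 2 when any library other than siTCF19 replicate 3 was left out. Cluster C (chr19:11483427-12640098, 25 genes) had 6 of 25 tested genes called, or 24.0%, beside 41.5% of all tested genes. There 1 gene rose, ZNF823, and 5 fell. ZNF844 was the best supported of these, at 29.1, 31.1 and 30.9 CPM in siTCF19 and 39.8, 38.2 and 40.1 CPM in siNC (log2 fold change -0.37, adjusted p = 6.37e-05, edgeR). Without siNC replicate 3 the genes of cluster C that fell numbered 2, and without siTCF19 replicate 1 they numbered 3.

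Cluster D (chr19:19668796-24129961, 37 genes) holds many genes that expanded in primates, among them ZNF91 and ZNF93. There 3 of 36 tested genes rose (ZNF431, ZNF738 and ZNF681) and 6 fell, and the median was -0.07. The genes that rose are 8.33% of those tested in cluster D, where 20.7% of all tested genes rose. Those that fell are 16.7%, where 20.8% of all tested genes fell, so both shares lie below those of all genes. Cluster E (chr19:34677639-34964049, 5 genes) had 2 genes that fell, ZNF30 (-0.31) and ZNF792 (-0.38). They are 40.0% of its 5 tested genes, a share near that of all tested genes. Without siNC replicate 3 ZNF792 lost its call (adjusted p = 0.0663, edgeR).

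Clusters F and G, on the long arm, leaned to opposite sides of 0. In cluster F (chr19:36182060-37817300, 24 genes) 18 fold changes, or 75%, were below 0, and all 4 called genes fell. The median of cluster F was -0.06, or 0.00 under scaling by library size alone, where that of all genes was 0.06. The 4 called genes were ZNF850, ZNF829, ZNF571 and ZNF607, and without siNC replicate 2 there were 2. The 4 calls are 16.7% of the 24 tested genes of cluster F, beside 41.5% of all tested genes. In cluster G (chr19:43525497-45076588, 24 genes) 8 fold changes, or 33.3%, were below 0 and the median was 0.09, and it stayed above 0 in every alternative run. ZNF226 and ZNF180 rose and ZNF285 fell there, but neither rise was called without siNC replicate 1, and 1 of them was without siNC replicate 3 or any single siTCF19 library. The fall of ZNF285 was lost as described above. The 3 calls of cluster G are 12.5% of its 24 tested genes, against the same 41.5%. The difference between the clusters was not tested.

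Clusters H and I, towards the end of the long arm, have the most members. Cluster H (chr19:51571298-53580269, 39 genes) had 8 genes that rose and 4 that fell, or 31.6% of those tested, and cluster I (chr19:55476332-58481230, 57 genes) had 8 that rose and 7 that fell, or 26.8%, beside 41.5% of all tested genes. In cluster H, ZNF880, ZNF528 and ZNF578, which follow each other among the tested genes, all rose; ZNF534, between ZNF528 and ZNF578, was not tested. Without siNC replicate 1 or siTCF19 replicate 1 the genes that fell in cluster H numbered 2. In cluster I the genes that rose numbered 5 without siTCF19 replicate 1 and 4 without siTCF19 replicate 3, and those that fell numbered 4 without siTCF19 replicate 2. The medians of the clusters, -0.03 and -0.03, became 0.03 and 0.04 under scaling by library size alone, where that of all genes was 0.06. Under that scaling cluster H had 12 genes higher and 2 lower and cluster I had 13 higher and 5 lower. Of all genes, 42.5% were called there.

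Genes of the same cluster could go opposite ways, as ZNF83 and ZNF468 of cluster H did. ZNF83 (chr19:52594060-52690496, minus strand) rose, and ZNF468 (chr19:52838008-52890375, minus strand) fell. The windows around their RefSeq starts (GRCh38.p14, from 250 bases before the start to 50 after it) are shown because they are the most alike of the 4 pairs compared, with 238 identical positions in 310 aligned columns, or 76.8%. The pairs ZNF580 with ZNF581, ZNF83 with ZNF850 and ZNF844 with ZNF681 had 50.6%, 51.6% and 52.0%. Capitals mark GGGCGG on either strand, a word bound by SP1-family factors, and the window of ZNF83 is chr19:52690447-52690746 and that of ZNF468 chr19:52857570-52857869, both on the minus strand.
ZNF83: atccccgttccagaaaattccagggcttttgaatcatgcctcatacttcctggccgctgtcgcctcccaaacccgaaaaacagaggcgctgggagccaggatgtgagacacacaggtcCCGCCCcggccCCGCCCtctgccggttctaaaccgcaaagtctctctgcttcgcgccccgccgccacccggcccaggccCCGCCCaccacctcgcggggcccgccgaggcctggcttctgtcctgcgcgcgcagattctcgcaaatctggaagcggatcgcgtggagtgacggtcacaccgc
ZNF468: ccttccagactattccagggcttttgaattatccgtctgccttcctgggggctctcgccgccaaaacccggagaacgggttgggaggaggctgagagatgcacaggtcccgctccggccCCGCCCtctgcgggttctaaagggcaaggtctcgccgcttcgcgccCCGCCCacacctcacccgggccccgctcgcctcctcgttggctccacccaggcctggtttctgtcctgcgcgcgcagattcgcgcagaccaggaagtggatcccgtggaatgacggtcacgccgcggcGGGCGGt
Each window holds 3 matches. The ZNF468 start lies inside the span that the deposited table gives the gene. Of the exonic bases of ZNF468, 53.3% overlap another gene and 55.8% of its 50-base words occur in another gene, against 0% and 2.11% for ZNF83, so the level of ZNF468 rests in part on how such reads were counted.

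ZNF580 and ZNF581 are neighbours whose spans overlap (chr19:55635016-55643469 and chr19:55635459-55645622, both plus strand), and their fold changes had opposite signs. ZNF581 measured 25.4, 21 and 23.6 CPM in siTCF19 against 29.6, 32.2 and 29.8 CPM in siNC, a log2 fold change of -0.39 ± 0.09 (SE, adjusted p = 0.000272, edgeR), with no overlap. Each shares part of its exonic bases with other genes, 15.1% for ZNF580 and 23.4% for ZNF581, so reads from the common stretch may be lost to both or assigned to either. Their RefSeq windows are chr19:55640752-55641051 for ZNF580 and chr19:55643399-55643698 for ZNF581, with CCAAT, the word bound by the factor NF-Y, and GGGCGG in capitals on either strand.
ZNF580: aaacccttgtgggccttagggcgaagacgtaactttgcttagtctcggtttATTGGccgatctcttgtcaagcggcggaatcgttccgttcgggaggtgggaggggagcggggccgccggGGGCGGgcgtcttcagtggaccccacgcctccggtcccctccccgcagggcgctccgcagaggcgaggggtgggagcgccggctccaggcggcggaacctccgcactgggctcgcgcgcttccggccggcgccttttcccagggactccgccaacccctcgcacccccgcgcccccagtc
ZNF581: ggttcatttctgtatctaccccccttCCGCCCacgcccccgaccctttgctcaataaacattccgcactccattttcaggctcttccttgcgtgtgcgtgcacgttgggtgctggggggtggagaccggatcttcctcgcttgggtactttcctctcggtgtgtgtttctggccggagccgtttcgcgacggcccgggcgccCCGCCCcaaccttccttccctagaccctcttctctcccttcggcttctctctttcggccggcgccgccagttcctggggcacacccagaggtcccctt
The ZNF580 window holds CCAAT and GGGCGG and the ZNF581 window holds GGGCGG alone. Both windows lie inside the spans given above, away from the first bases, so starts at the edge of a span are not covered. A match is only a run of letters, and binding was not measured.

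The sequence of the promoter windows varied by cluster. Windows were found for 209 of the 240 genes, with a median GC content of 60.0% and 20 CG dinucleotides, against 58.3% and 14 over the 27305 windows of all genes. CCAAT was found in 52.6% of the zinc finger windows and 35.7% of all windows. GGGCGG was found in 69.9% and 44.6%, and TATAAA, the TATA box, in 1.91% and 12%. CCAAT stood in 29 of 29 windows of cluster D and 22 of 24 of cluster C, but in 3 of 22 windows of cluster F and 4 of 20 of cluster G. Among called genes CCAAT was found in 47.6% of the windows of those that rose and 60.7% of those that fell, and in 51.9% of those not called. AAGATGGC, the word of the factor YY1, was in 6.22% of the zinc finger windows and 3.03% of all windows. Both strands were read, no word contains another, and matches of different words may overlap at their edges.

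The windows of 2 genes that fell show the contrast between clusters. ZNF850 of cluster F (chr19:36772758-36773057, minus strand) carries CTCGCGAG, a palindrome found in 0.957% of the zinc finger windows and 1.06% of all windows, and no CCAAT. ZNF844 of cluster C (chr19:12064481-12064780, plus strand) carries CCAAT and GGGCGG. The matches are in capitals.
ZNF850: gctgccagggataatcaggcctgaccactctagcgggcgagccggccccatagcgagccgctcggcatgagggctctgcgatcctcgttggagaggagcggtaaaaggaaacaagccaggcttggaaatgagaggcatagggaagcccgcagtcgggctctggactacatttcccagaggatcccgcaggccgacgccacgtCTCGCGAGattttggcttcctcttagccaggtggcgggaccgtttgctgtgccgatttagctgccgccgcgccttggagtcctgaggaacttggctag
ZNF844: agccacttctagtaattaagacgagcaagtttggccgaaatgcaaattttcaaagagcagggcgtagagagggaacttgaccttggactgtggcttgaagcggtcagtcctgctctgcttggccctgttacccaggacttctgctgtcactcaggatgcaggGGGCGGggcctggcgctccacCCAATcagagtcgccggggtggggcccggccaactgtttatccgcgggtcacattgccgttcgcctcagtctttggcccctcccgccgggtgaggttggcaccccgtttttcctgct
CTCGCGAG also stood in the window of 1 other zinc finger gene, ZNF414, which rose.

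Several members have known roles, and most of these were not called. ZNF91 and ZNF93 silence retrotransposons, SVA elements in the case of ZNF91 and LINE-1 elements in the case of ZNF93. ZNF91 measured 50.7, 50.6 and 44.8 CPM in siTCF19 and 53.5, 48.2 and 51.1 CPM in siNC, with a 95% interval of -0.20 to 0.07 for the log2 fold change. ZNF93 measured 13.7, 14.6 and 13.2 CPM in siTCF19 and 16, 15.9 and 17.2 CPM in siNC (log2 fold change -0.25, 95% interval -0.46 to -0.03, adjusted p = 0.056, edgeR). The ranges overlapped for ZNF91 and did not for ZNF93. ZNF274, which brings SETDB1 to zinc finger genes themselves, measured 62.3, 62.7 and 61.1 CPM in siTCF19 and 58.4, 68.2 and 61.3 CPM in siNC. Its 95% interval was -0.14 to 0.11, and the sign turned without siNC replicate 2 (0.05).

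ZNF331, an imprinted gene, was the exception among the genes of known role. It measured 63.7, 59.3 and 55.1 CPM in siTCF19 and 56.2, 48.4 and 50.9 CPM in siNC, a log2 fold change of 0.20 (adjusted p = 0.0173, edgeR), with overlapping groups. The call was lost when siTCF19 replicate 1 or either of siNC replicates 2 and 3 was left out, and in limma on the FPKM values. Apart from ZNF93, whose interval is given above, the 95% intervals of the others of known role included 0. They were -0.43 to 0.01 for ZNF350 (ZBRK1, a repressor of DNA damage-response genes), -0.29 to 0.17 for ZNF420 (Apak, a regulator of p53) and -0.19 to 0.18 for ZNF473, a factor of histone pre-mRNA processing. They were -0.21 to 0.14 for ZNF568, whose mouse counterpart represses a placental Igf2 transcript, -0.31 to 0.05 for ZNF675, an inhibitor of TRAF6 signalling, -0.27 to 0.16 for the repressor ZNF224 and -0.10 to 0.24 for the repressor ZNF382. The sign for ZNF224 turned without siNC replicate 3 (0.06).

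Levels between genes are compared in FPKM, the deposited value per length and depth. The median over the 240 genes was 3.05 FPKM, 214 reached 1 FPKM, 60 reached 5 FPKM and 10 reached 10 FPKM. ZNF146, a protein made of fingers alone, stood far above the rest at 43.9 ± 1.89 FPKM in siTCF19 and 45.4 ± 1.97 FPKM in siNC (SD, n = 3 each). ZNF787 followed at 18.1 ± 1.11 FPKM in siTCF19 and 19 ± 1.02 FPKM in siNC. Neither was called, with log2 fold changes from the counts of -0.05 for ZNF146, or 0.01 under scaling by library size alone, and -0.08 for ZNF787. ZNF121 had 15.2 ± 0.282 FPKM in siTCF19 and 21.1 ± 1.58 FPKM in siNC, so it stood below ZNF146, ZNF787 and ZNF358 in siTCF19 and below ZNF146 alone in siNC. ZNF358 had 17.2 ± 1.26 FPKM in siTCF19 and 14.2 ± 0.915 FPKM in siNC and rose (log2 fold change of counts 0.28, adjusted p = 0.00423, edgeR). ZNF581 completes the 5 most abundant at 13.3 ± 1.3 FPKM in siTCF19 and 17.4 ± 0.856 FPKM in siNC. In siTCF19 ZNF787 and ZNF358 do not differ beyond their spread, and in siNC ZNF787 and ZNF121 do not.

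At the other end, 6 genes had too few counts to test. ZNF560, ZNF536 and ZNF835 had 0 counts in all 6 libraries, below the floor of 3 counts. ZNF177 had 4, 7 and 6 counts in siTCF19 and 6, 6 and 5 in siNC, and ZNF534 had 2, 2 and 6 in siTCF19 and 4, 1 and 2 in siNC. ZNF90 had 0, 0 and 1 counts in siTCF19 and 6, 2 and 0 in siNC. Of the 50-base words of ZNF177, 86.8% also occur in another gene, the largest share in the family, where the median was 2.48%.

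**Figure D4:**
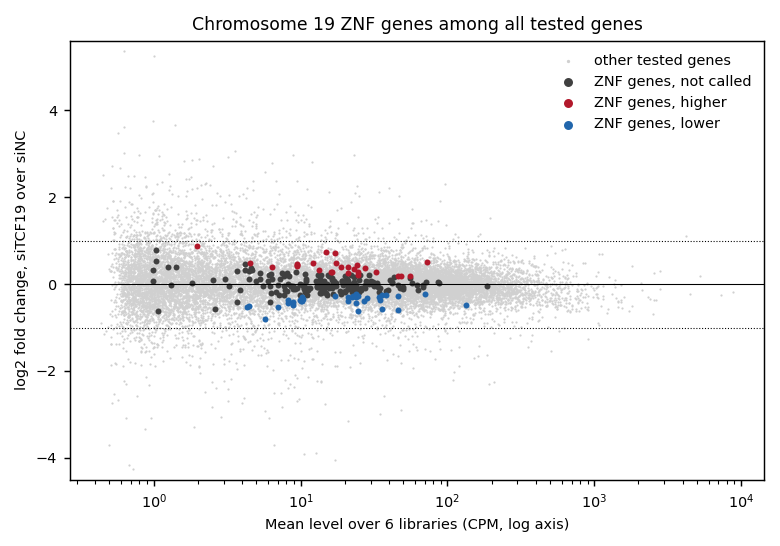
Log2 fold change (siTCF19 over siNC, vertical axis) against the mean CPM over 6 libraries (horizontal log axis) for the 234 tested zinc finger genes, coloured by call, over the other tested genes in light grey; dotted lines mark 2-fold. All 234 zinc finger genes lie between the dotted lines, from -0.81 to 0.88, and the most abundant, ZNF146, lies close to 0.

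The make-up of the proteins, read from translated GENCODE transcripts, was compared with the calls after the data were seen. A KRAB-like pattern was found in 203 of the 240 proteins, of which 199 were tested, 20 rose and 30 fell, or 25.1%, beside 41.5% of all tested genes. Of the 35 tested genes without it, 6 rose and 4 fell, or 28.6%, and the number that rose was 3 without siNC replicate 1 and 2 without siTCF19 replicate 3. The pattern misses divergent boxes, such as those of ZNF180 and ZNF473. The proteins had a median of 12 finger patterns and at most 36. The called share was 50% of 14 genes with 0 to 5 finger patterns, 29.4% of 68 with 6 to 10, 25% of 100 with 11 to 15, 17.1% of 41 with 16 to 20 and 9.09% of 11 with 21 or more. The first and the last of these classes hold few genes, the share of the first is near the 41.5% of all tested genes, and the differences between the classes were not tested. ZNF850, with 29 finger patterns, was the single called gene of the last class.

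The calls were also counted by overlap with other genes. Of 63 tested zinc finger genes whose span overlaps no other gene, 12 rose and 5 fell, or 27.0%, with a median of 0.01. Of 171 that overlap another gene, 14 rose and 29 fell, or 25.1%, with a median of -0.05. Both shares stand beside 41.5% of all tested genes, the difference between the classes was not tested, and the split by direction over all zinc finger genes depends on the scaling. The labels name the library kit but not a strand setting for counting. Whether reads of a gene and of an antisense neighbour were counted apart is therefore not known. The part of this in the calls was not tested.

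Among genes for the proteins that KRAB zinc fingers work through, RNA more often fell than rose. Protein levels were not measured. Of 36 genes of this silencing machinery, 3 rose, 16 fell and 17 were not called, and the 52.8% called stand beside 41.5% of all tested genes. By direction, 44.4% fell, where 20.8% of all genes did, and 8.33% rose, where 20.7% did. Their median log2 fold change was -0.09, beside 0.00 over all genes. The list was chosen with earlier results of these data known. Depth bears on these shares too. The machinery genes had a median of 111 CPM and a median standard error of 0.05, against 19.8 CPM and 0.10 for all tested genes. Of all tested protein-coding genes 48.2% were called, 23.8% higher and 24.5% lower. No share at a matched level was taken, and the differences were not tested. TRIM28, the corepressor that binds the KRAB box, averaged 581.6 ± 25 CPM in siTCF19 and 822.5 ± 31.1 CPM in siNC (SD, n = 3 each), a log2 fold change of -0.50 (adjusted p = 1.01e-12, edgeR). SETDB1, its histone methyltransferase, averaged 49.6 ± 1.52 CPM in siTCF19 and 62.2 ± 1.97 CPM in siNC (SD, n = 3 each), a log2 fold change of -0.33 (adjusted p = 4.36e-05, edgeR). The groups did not overlap for either gene.

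The RNA of the partners of TRIM28 and SETDB1 moved unequally. Of the genes for heterochromatin proteins that read methylated histone, CBX3 fell (-0.32), CBX5 rose (0.34) and CBX1 was not called (-0.03). Of the genes of the NuRD complex, MTA1 (-0.38), MTA2 (-0.33), HDAC2 (-0.32), CHD4 (-0.32) and RBBP4 (-0.14) fell, while CHD3, HDAC1 and RBBP7 were not called. RBBP4 lost its call without siNC replicate 1 (adjusted p = 0.0657, edgeR). Of the genes for SETDB1 cofactors, ATF7IP2 fell (-0.50) and ATF7IP was not called (-0.08). The silencing ATPase MORC2 (-0.34) and FAM208A, which encodes the HUSH subunit TASOR (-0.21), also fell, and FAM208A lost its call without siNC replicate 1 or siTCF19 replicate 3.

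RNA of the histone methyltransferases SUV39H1 (-0.35) and EHMT2 (-0.23) and of the histone chaperone DAXX (-0.22) fell. RNA of UHRF1 (-0.21) and DNMT1 (-0.19), whose proteins maintain DNA methylation, fell as well. SUMO3, a modifier of TRIM28, rose by 0.31 (adjusted p = 2.24e-06, edgeR). The remodeller SMARCAD1 rose by 0.17 (adjusted p = 0.0385, edgeR), a call lost when any of siNC replicates 2 and 3 and siTCF19 replicates 1 and 2 was left out.

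**Figure D5:**
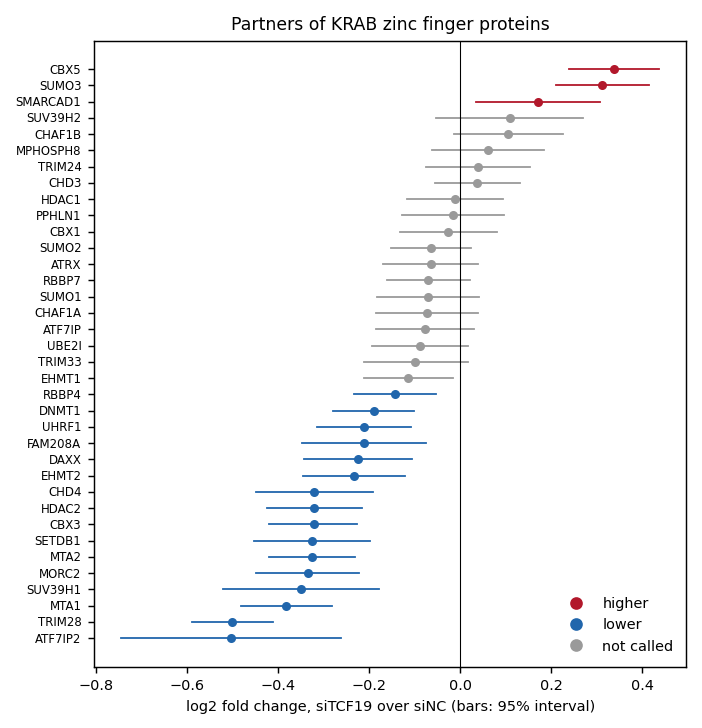
Log2 fold change (siTCF19 over siNC) with 95% confidence intervals for the 36 genes of the KRAB silencing machinery, coloured by call. TRIM28 (-0.50) and ATF7IP2 (-0.50) are the lowest and CBX5 (0.34) the highest.

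In the authors' deposited table of fold changes, 237 of the zinc finger genes are listed and 34 have an adjusted p under 0.05, of which 14 are higher and 20 lower in siTCF19, where 17.6% of all 32587 listed genes pass. All 34 are among the 60 called here with the same sign. Over all fits run, 30 of the 60 were called each time, 11 of them higher and 19 lower. Of the named genes and the machinery, DESeq2 did not call ZNF547, ZNF878, ZNF285, ZNF180 or SMARCAD1. The limma fit to FPKM did not call ZNF578, ZNF471, ZNF442, ZNF285, ZNF331, ZNF180, ATF7IP2, FAM208A or SMARCAD1. Scaling by library size alone did not call ZNF285, RBBP4 or FAM208A, and limma-voom did not call SMARCAD1. With no filter on low counts ZNF547 was not called.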

How the data were processed

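Whole-number counts per gene, deposited by the authors, and FPKM values, which the authors derived per gene length and depth, were read for 6 libraries of Ishikawa cells. Per the submitters' processing notes the tools were HISAT2 2.0.5 and featureCounts 1.5.0-p3 on hg38. The authors' normalised signal columns, log2 fold changes and p-values were also in the deposited table. The log2 and p-value columns served for the comparison with the authors' table. Counts were filtered by filterByExpr, scaled by TMM and tested with edgeR 4.0.16 (glmQLFTest, siTCF19 against siNC, R 4.3.3), with Benjamini-Hochberg adjustment over all 17299 genes tested. The script was tested on simulated data. Standard errors come from the fitted fold change. Alternatives were DESeq2 1.42.0, limma 3.58.1 (voom, or trend on log2(FPKM + 1)), other scalings, other filters, a replicate block and each library left out. Starts and ends of all 240 genes matched GENCODE release 29, from which transcripts were translated and overlaps and shared 50-base words counted. Promoter windows of 300 bases came from RefSeq (GRCh38.p14).

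Groups and replicate numbers came from the sample titles. Libraries of the same group differed by more than sampling noise (chi-square per degree of freedom 2.28 to 3.81), so none was a copy. Intervals and floors cover counting error and the spread between these libraries only.

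The rule for the members uses no measured value. That rule, the machinery list and the tests were nonetheless set with earlier results of these data known. The machinery list held 37 symbols for 36 genes, since FAM208A and TASOR name the same gene, and all 36 were found. Named genes were the 12 largest called rises and 12 largest called falls with at least 1 CPM on average, the 5 highest by FPKM, the called gene with the lowest p in each cluster, 12 genes of known role and the called machinery genes. Genes outside this rule that the text names, such as ZNF541, ZNF414 and the called neighbours in a cluster, were chosen after their values were seen, as were the 5 to 50 CPM band and the classes by finger and KRAB pattern.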

Additional observations from a re-analysis of the deposited data

How the results depend on the processing

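TCF19 fell in every fit. The 60 zinc finger calls kept their sign in every alternative that called them, and at an adjusted p under 0.05 the number called ran from 40 to 65. DESeq2 called 42, of which 17 higher; limma on log2(FPKM + 1) called 40, of which 14 higher; at an adjusted p under 0.01, 13 were higher and 21 lower. Genes overlapping no other gene gave 12 higher, 5 lower and a median of 0.007. With library size alone the medians were 0.034 for the zinc finger genes, 0.061 for all genes, -0.032 for the machinery, 0.029 for ZNF genes of other chromosomes (28 lower), 0.017 with and 0.11 without the KRAB pattern, and ZNF146 turned to 0.012. With the KRAB pattern, limma on FPKM called 10 higher, and the 0.01 threshold 10 higher and 18 lower. Without the pattern, DESeq2 and the 0.01 threshold called 3 higher, and the median was 0.041 with a 1 CPM filter, 0.036 with limma on FPKM and 0.056 with upper-quartile scaling. For ZNF genes of other chromosomes the 0.01 threshold gave 20 higher and 28 lower. The cause of these shifts was not tested.

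Leaving out 1 library gave 45 to 54 called zinc finger genes, or 19.2% to 23.1%, beside 35.4% to 38.2% of all genes. Without the KRAB pattern it gave 2 to 9 higher and medians of 0.033 to 0.065. ZNF224 ran from -0.108 to 0.063, positive without siNC replicate 3, and ZNF274 from -0.062 to 0.052, positive without siNC replicate 2. Same-numbered libraries did not deviate together (correlations 0.0086, -0.0241 and 0.021). Whether they shared a culture or batch is not settled by this, since the spread between libraries could hide it. With a replicate block, 24 were higher and 33 lower, or 24.4%, beside 39.7% of all genes. Of these 57, 56 were among the 60. Splitting clusters at gaps of 0.5 Mb gave 10 clusters and at 2 Mb gave 6. Depth limits genes such as ZNF578, at 1 to 3 CPM, and the 6 genes not tested.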
